A study of Mus musculus with 9 samples.

Results

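The assembled spliced lncRNA transcripts of the mouse liver comprised 440 of the 26083 long non-coding RNA (lncRNA) transcripts in the deposited table. They were the entries with at least 2 exons that the table does not mark as known, that is, transcripts assembled from the reads and not taken from the annotation. The other entries were 17764 assembled transcripts with a single exon, 5396 known spliced transcripts and 2483 known single-exon transcripts. Total liver RNA depleted of ribosomal RNA was sequenced with strand information in 9 libraries, 3 for each of 3 groups. The pair-fed group (PF) received an isocaloric control liquid diet, and the alcohol-fed group (AF) received the Lieber-DeCarli alcohol diet, each for 5 weeks. The remaining group (AF MNA) received the alcohol diet together with daily intraperitoneal MNA at 50 mg/kg, the compound being given by that abbreviation only. All mice were labelled as 8 weeks old, and the methods describe male C57BL/6J mice. The strain label read C57BL/6 for PF and AF but C57BL/7, C57BL/8 and C57BL/9 for the 3 AF MNA libraries. Each library is labelled as a separate replicate of its group, and nothing in the labels says whether any 2 came from 1 animal, so the p-values below measure the spread between these libraries.

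A lncRNA is a transcript that is not known to be translated into a protein. Many are capped, spliced and polyadenylated like messenger RNA, but they are on the whole less abundant and more restricted to certain tissues. Some act on chromatin or on neighbouring genes, some are read from the strand opposite to a coding gene (antisense), and for most no function is known. Assembly joins reads that cross splice junctions into transcripts, so a spliced model carries direct evidence of its strand from the junction, which a single-exon model does not.

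Levels are given in FPKM, a count of sequenced fragments divided by the length of the transcript and by the depth of the library. From the coverage columns, 1 FPKM corresponded to between 5.84 and 8.30 reads covering each base, depending on the library, and no read counts were used here. The labelled tissue was checked against markers: 8 hepatocyte markers summed to between 18850 and 26532 FPKM in every library, against 16.6 to 33.0 FPKM for 5 measured Kupffer cell markers. The sums of 3 other lists did not overlap between AF and PF. The 5 sinusoidal endothelial markers summed to 25.4 to 36.2 FPKM in AF and 19.7 to 24.3 in PF, and the 3 neutrophil markers summed to 0.73 to 1.44 FPKM in AF and 0.17 to 0.68 in PF, with Ly6g at or near 0 in all libraries. The 2 measured pancreas markers summed to 2.25 to 4.29 FPKM in AF and 5.47 to 6.91 in PF, with Amy2a5 at or near 0 in all libraries. Between AF and AF MNA, the neutrophil sum of 0.19 to 0.45 FPKM in AF MNA lay below that of AF, and the sum of the 4 lymphocyte markers, 0.42 to 0.75 FPKM in AF MNA and 0.21 to 0.41 in AF, lay above it. AF 3 and AF MNA 1 held 48.7% and 49.2% of the assembled single-exon transcripts above 0 FPKM, against 24.8% to 33.3% in the other 7 libraries. The part of these patterns in the results below was not tested. In bulk tissue, fewer cells of a type and less RNA per cell cannot be told apart.

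Sequences of some of the loci described below are given first. They are the start windows of 3 loci with an assembled isoform past the unadjusted threshold described below, none of which passed the correction. The others are small nuclear RNA (snRNA) genes spanned by assembled transcripts with high levels. Start windows are from RefSeq on GRCm38.p6, each beginning 250 bases before the RefSeq gene start and ending 50 bases after it (Zfp36l1 ending at it), on the strand of the gene. Capitals mark the bases that lie within the assembled transcript. The Gm30784 window, chr6:141866106-141866405 (plus strand), holds the start of MSTRG.37288.1, and the assembled isoforms of this locus were higher in AF than in PF. The Gm36419 window, chr19:32543097-32543396 (plus strand), holds the start of MSTRG.22177.1, whose AF and AF MNA ranges overlapped. Another isoform of this intergenic locus, MSTRG.22177.6, was called higher with MNA, and it begins after the end of the window. The Zfp36l1 window, chr12:80113014-80113263 (minus strand), holds the start of MSTRG.10088.1, an isoform that was lower in AF.
Gm30784: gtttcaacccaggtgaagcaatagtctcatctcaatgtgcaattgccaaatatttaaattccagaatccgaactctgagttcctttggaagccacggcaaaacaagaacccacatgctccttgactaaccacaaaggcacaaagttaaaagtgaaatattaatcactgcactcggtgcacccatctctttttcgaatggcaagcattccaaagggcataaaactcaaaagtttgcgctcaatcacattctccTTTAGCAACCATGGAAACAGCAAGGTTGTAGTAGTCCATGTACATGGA
Gm36419: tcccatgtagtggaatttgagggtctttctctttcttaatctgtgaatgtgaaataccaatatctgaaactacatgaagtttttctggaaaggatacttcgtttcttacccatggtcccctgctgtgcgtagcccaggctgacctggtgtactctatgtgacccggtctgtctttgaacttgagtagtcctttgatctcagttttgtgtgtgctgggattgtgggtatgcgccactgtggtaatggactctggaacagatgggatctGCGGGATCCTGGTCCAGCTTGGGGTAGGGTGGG
Zfp36l1: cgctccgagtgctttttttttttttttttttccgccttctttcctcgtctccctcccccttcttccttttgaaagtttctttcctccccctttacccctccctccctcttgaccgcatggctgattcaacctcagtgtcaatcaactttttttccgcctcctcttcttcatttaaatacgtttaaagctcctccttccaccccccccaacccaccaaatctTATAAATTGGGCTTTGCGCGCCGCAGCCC

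At Gm30784, 3 assembled isoforms of MSTRG.37288 began 2, 13 and 15 bases after the RefSeq start, within the first bases of the annotated gene. At Gm36419, 5 assembled isoforms began 17 or 34 bases after the RefSeq start. MSTRG.10088.1 instead began 29 bases upstream of the RefSeq start of Zfp36l1, and the capitals in that window open with the motif TATAAA. On either strand, this motif occurred in 13.6% of all 32851 RefSeq windows of this length and in 14.4% of the 90 windows in which an assembled spliced transcript starts on the same strand. CCAAT occurred in 37.4% and 40.0% of them, and GGGCGG in 35.7% and 30.0%. A match describes letters in a window and is not evidence that a factor binds there.

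The snRNA genes shown are from GENCODE M21 on GRCm38, with capitals at the base that differs between the 2 copies. Gm24305, chr12:54734555-54734718 (minus strand), and Gm22317, chr12:54738459-54738622 (minus strand), have the sequence of U1, the RNA that pairs with the 5′ splice site, and are both spanned by MSTRG.9630.1, which extends beyond Gm24305 at one end and stops within Gm22317 at the other. Gm23472, chr1:72236946-72237136 (plus strand), and Gm24497, chr1:72244213-72244403 (plus strand), have the sequence of U2, the RNA that pairs with the branch point, and lie under the ends of MSTRG.1196.1.
Gm24305: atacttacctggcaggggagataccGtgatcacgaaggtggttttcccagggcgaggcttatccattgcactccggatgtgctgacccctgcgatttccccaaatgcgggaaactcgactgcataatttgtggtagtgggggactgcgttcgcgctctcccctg
Gm22317: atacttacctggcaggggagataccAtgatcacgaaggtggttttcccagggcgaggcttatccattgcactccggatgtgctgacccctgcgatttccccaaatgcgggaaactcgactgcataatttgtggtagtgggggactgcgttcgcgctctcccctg
Gm23472: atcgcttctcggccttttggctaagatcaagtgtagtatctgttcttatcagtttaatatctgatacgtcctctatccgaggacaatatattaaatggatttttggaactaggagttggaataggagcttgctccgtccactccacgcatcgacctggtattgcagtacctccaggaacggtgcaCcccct
Gm24497: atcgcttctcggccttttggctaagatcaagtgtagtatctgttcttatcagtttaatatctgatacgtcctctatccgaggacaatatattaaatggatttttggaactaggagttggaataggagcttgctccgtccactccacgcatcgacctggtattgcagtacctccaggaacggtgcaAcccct

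The U1 copies were 164 bases long and differed by G26A alone, the base of Gm24305 first and positions counted from 1 at the 5′ end. The U2 copies were 191 bases long and differed by C186A. MSTRG.9625.2 begins within the U1 gene Gm22634 and reaches 148 bases beyond the U1 gene Gm26444, and these 2 genes had 0 differences over 164 bases. A read from one copy can therefore be placed equally well on the other over nearly its whole length.

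The table assigns each assembled transcript a class by its position relative to known transcripts. Of the 440, 195 shared a splice junction with a known transcript (class j), 104 were intergenic (u), 66 overlapped exons on the opposite strand (x), 52 lay within an intron (i) and 23 overlapped exons on the same strand in another way (o). They came from 314 loci, of which 239 held 1 and 75 held 2 or more. The most, 12 isoforms, lay at MSTRG.28718 (0610031O16Rik). At 136 loci, with 215 of the transcripts, a known transcript was also listed, coding or non-coding. The other 178 loci, with 225, held no known transcript. They lay on 21 chromosomes, most on chromosome 9 with 32 and fewest on chromosome Y with 3.

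The assembled spliced transcripts were longer and more evenly detected than the other assembled transcripts. Their median length was 1889 bases (interquartile range 840 to 3299, range 208 to 26114), against 354 bases for assembled single-exon transcripts and 880.5 for known spliced transcripts. Most were simple, 248 (56.4%) having 2 exons, 98 having 3 and 59 having 4, and the largest number was 14. The median of their mean FPKM over the 9 libraries was 0.861, against 0.262 for assembled single-exon, 0.0861 for known spliced and 0.0927 for known single-exon transcripts. All 9 libraries listed 253 of them (57.5%) above 0 FPKM, against 1.35%, 33.6% and 18.3% of the other 3 kinds, and 28 were found in 1 library only. An assembled transcript enters the table only where reads support it, so the levels of assembled and known transcripts do not compare like with like. Intronic transcripts had the highest median, 1.15 FPKM, and class j the lowest, 0.773 FPKM. The coding-potential scores of the table, CPC and CNCI, were below 0 for all of them, the non-coding side of both scores. The study's methods word the selection the other way, naming low CPC and CNCI scores as the ground for removal, whereas the entries in the table have such scores.

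**Figure D1:**
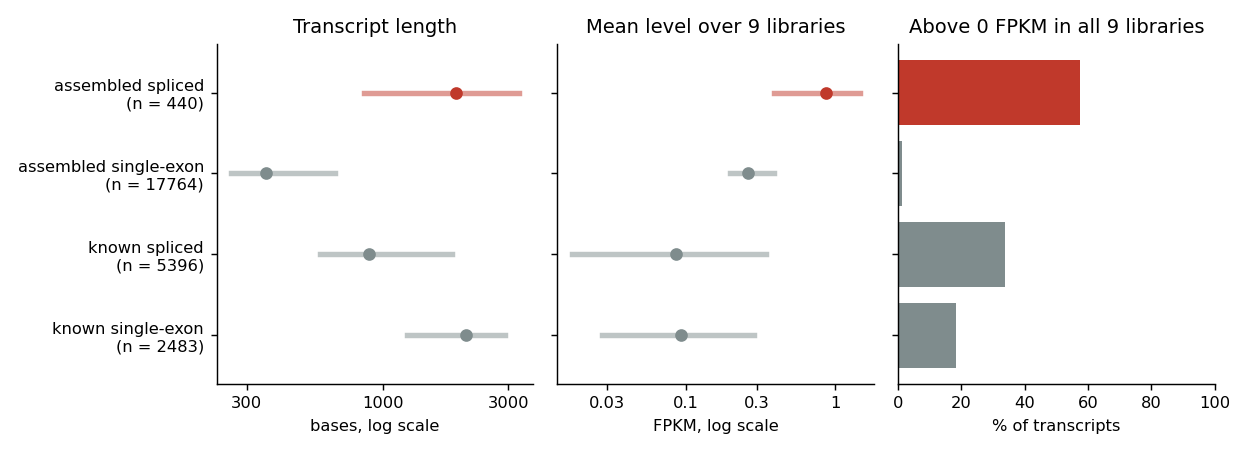
Length in bases (log scale), mean level over 9 libraries in FPKM (log scale) and percent of transcripts above 0 FPKM in all 9 libraries, for the 4 kinds of lncRNA transcript. Points are medians and thick lines interquartile ranges. The 440 assembled spliced transcripts have the highest median level, 0.861 FPKM, and 57.5% of them were found in all 9 libraries.

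Many of these transcripts lay at genes of other annotations. The start of 108 (24.5%) fell within a RefSeq start window on the same strand, and the start of 27 fell within one on the opposite strand. Of the 104 intergenic transcripts, 24 began in a same-strand RefSeq window, 41 overlapped a same-strand gene of GENCODE M21, and 61 overlapped no GENCODE gene at all. Over the whole set, 157 overlapped a coding gene on the opposite strand. Another feature, a head-to-head start, was found in 41: a coding gene read in the other direction began at most 1000 bases upstream of their start. Positions were compared on GRCm38, where 7706 of the 7879 known lncRNA transcripts of the table had the same chromosome, strand, start and end.

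The most abundant stable member was MSTRG.40245.2 (Gm45507, chr7:138890967-138894601, 2 exons, 524 bases), read from the strand opposite to Bnip3, a receptor for the removal of mitochondria. It measured 96.3, 108 and 104 FPKM in the PF libraries, 116, 126 and 81.1 in AF and 112, 97.6 and 109.5 in AF MNA. These values overlapped between all groups, and the AF mean of 108 ± 23.5 (SD, n = 3) differed from the PF mean of 103 ± 6.11 by less than the spread between libraries. The Bnip3 entry measured 56.8, 69.8 and 68.8 FPKM in PF and 76.3, 85.0 and 65.9 in AF.

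MSTRG.13736.1 was the most abundant intergenic member. It covers chr14:36970026-36997715 with 3 exons and 15303 bases, overlaps no GENCODE M21 gene and lies 1248 bases from the start of Ccser2, which is read in the other direction. It measured 8.01, 11.1 and 10.3 FPKM in the PF libraries, 4.68, 5.02 and 14.9 in AF and 12.2, 11.3 and 11.1 in AF MNA. AF 1 and AF 2 were below every other library and AF 3 above every other, so the AF and PF ranges overlapped. Its log2 ratio of AF to PF was -0.26, and without AF 3 it was -1.02 and past the threshold described below.

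The remaining members among the 10 with the highest means included MSTRG.30241.1 (Gm12798), MSTRG.20912.2 within Prr16, and MSTRG.10088.1 (Zfp36l1) described below. MSTRG.30241.1 measured 6.75, 8.79 and 11.4 FPKM in the PF libraries, 20.2, 4.21 and 9.11 in AF and 6.89, 2.53 and 4.01 in AF MNA, with AF 1 the highest library. MSTRG.20912.2 measured 7.43, 6.24 and 7.33 FPKM in the PF libraries, 5.54, 4.57 and 8.57 in AF and 6.97, 5.12 and 6.61 in AF MNA. Both had overlapping ranges in the 3 groups.

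Of the 10 highest members, 4 spanned 2 or more snRNA genes on their own strand, and they were high in a few libraries and at or near 0 in the rest. No assembled single-exon transcript spanned 2 such genes, and 2 of the 5396 known spliced transcripts did. MSTRG.9630.1, a 2-exon model of 487 bases over Gm24305 and Gm22317, measured 19.0, 0 and 0 FPKM in the PF libraries, 0, 0 and 7.98 in AF and 359, 2119 and 0 in AF MNA. MSTRG.9625.2, of 303 bases over 3 U1 genes, measured 0, 0 and 0 FPKM in the PF libraries, 0, 0 and 11.0 in AF and 435, 0.0995 and 1111 in AF MNA. The 2 models thus changed places between libraries, AF MNA 2 holding the first and AF MNA 3 the second, and AF MNA 1 both.

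MSTRG.27888.1, of 264 bases, joined Gm26232 and Gm22614 across a span of 38434 bases and measured 0, 9.63 and 0 FPKM in the PF libraries, 57.5, 0 and 47.1 in AF and 32.9, 73.1 and 0 in AF MNA. MSTRG.1196.1, of 310 bases, began at the first base of the U2 gene Gm23472 and ended 7 bases before the end of Gm24497, and it measured 0, 316 and 0 FPKM in AF and 0 in the other 6 libraries. For none of the 4 were all 3 libraries of a group high. Their sum made 0 to 3.22% of the FPKM of all 440 transcripts in PF, 8.63%, 35.0% and 8.32% in AF 1 to 3, and 55.2%, 80.8% and 64.3% in AF MNA 1 to 3. The other 436 summed to between 520.4 and 728 FPKM in every library.

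**Figure D2:**
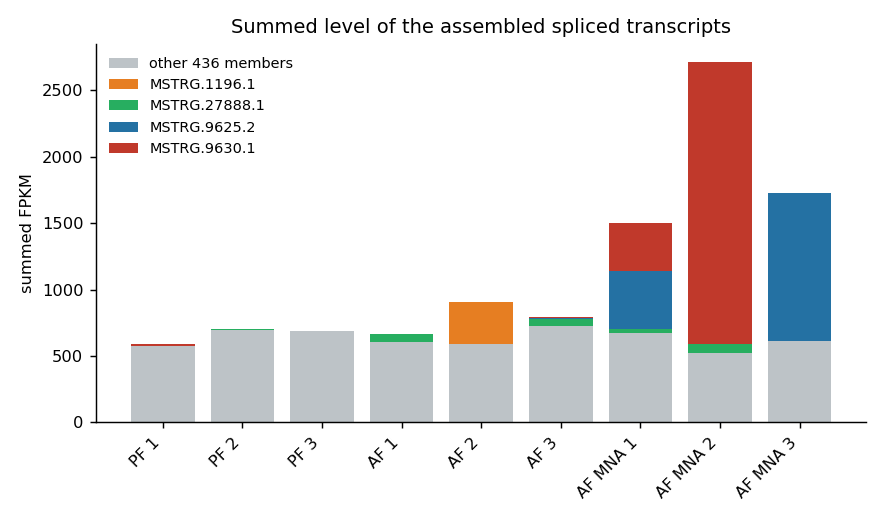
Summed FPKM of the 440 assembled spliced transcripts in each of the 9 libraries, with the 4 transcripts that span 2 or more snRNA genes in colour and the other 436 in grey. The grey part stays between 520.4 and 728 FPKM, and the coloured part reaches 80.8% of the sum in AF MNA 2.

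The share of FPKM given to isoforms that differ little from each other varied between libraries. At MSTRG.28718, MSTRG.28718.17 and MSTRG.28718.18 both have 4 exons and measure 4888 and 4898 bases. MSTRG.28718.17 measured 4.31, 0 and 15.0 FPKM in PF, and MSTRG.28718.18 measured 10.4, 14.3 and 0.870. Their sum was 14.7, 14.3 and 15.9 FPKM in PF, or 15.0 ± 0.814 (SD, n = 3), a narrower spread than that of either isoform alone. In AF the reverse held, MSTRG.28718.17 measuring 2.48, 1.75 and 9.37 FPKM and MSTRG.28718.18 3.88, 5.08 and 9.51, both highest in AF 3. Their sum in AF was 6.36, 6.83 and 18.9 FPKM, with an SD of 7.09 against 4.20 and 2.96 for the isoforms, AF 1 and AF 2 lying below every PF library and AF 3 above. In AF MNA it was 17.3, 11.0 and 14.2 FPKM.

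The members with the most exons were 3 isoforms of Firre, an X-linked nuclear lncRNA, with 14, 14 and 12 exons. The largest, MSTRG.46499.4 (chrX:50555751-50635323), measured 1.26, 1.98 and 1.81 FPKM in the PF libraries, 0, 0.568 and 1.56 in AF and 1.46, 1.14 and 0.554 in AF MNA. Its AF and PF ranges overlapped because of AF 3. The AF difference, a log2 ratio of means of -1.25, was not past the threshold described below. It passed without AF 3, where the ratio was -2.57, after scaling to the same median, and in a linear model with a library-size covariate. MSTRG.46499.9 and MSTRG.46499.10 had log2 ratios of -0.49 and -0.55, and the 3 isoforms summed to 2.24, 3.49 and 3.13 FPKM in PF and 0.471, 0.908 and 3.45 in AF.

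In the 306 members that averaged 0.5 FPKM or more, the median SD within a group was 0.412 on the log2(FPKM + 1) scale. It was 0.606 for assembled single-exon transcripts, 0.279 for known spliced and 0.290 for known single-exon transcripts at that level. In 56 members (18.3%) a group held a library at 0 beside one of at least 1 FPKM. Members that were alone at their locus varied less (0.360 for 180) than those with another assembled isoform (0.521 for 126), and summing the assembled isoforms of a locus gave 0.495 over 70 loci.

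The comparison of AF with PF asks which of these transcripts follow alcohol feeding. Of the 440, 399 reached the minimum mean of 0.1 FPKM and were tested, and 39 of them (9.77%) passed the threshold. It asks for a limma p under 0.05 before adjustment and for group means that differ by more than 1 on the log2 scale. The study set the same 2 limits with Ballgown and does not say whether its p was adjusted. The counts here therefore do not compare directly with the study's list. Over all 18310 lncRNA transcripts tested the share was 2.47%. Higher in AF were 18, against a share of 1.41% over all transcripts, and lower were 21, against 1.06%. The number lower was 11 without PF 3, 9 without AF 1 and 9 without AF 2, where 13, 17 and 20 were higher. No member had a Benjamini-Hochberg adjusted limma p under 0.05 (smallest 0.595), against 0.0164% of all transcripts, and 40 members had an unadjusted p under 0.05, against 2.62% of all, so every member called below failed the correction and stands at the unadjusted threshold. The groups did not overlap in 73 members (18.3%), against 6.23% of all transcripts and 13.8% of known spliced transcripts. The median log2 ratio was -0.01 over the members and 0.55 over all transcripts, where the assembled single-exon transcripts had a median of 1.24. After scaling all libraries to the same median, 13 members were higher and 30 lower. With the limma coefficient in place of the log2 ratio of means, 17 members passed (4.26%), against 1.40% of all transcripts.

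Compared at like levels, the share of members that passed was above that of all transcripts and that of known spliced transcripts in each range. Below 0.5 FPKM, 1 of 91 members passed (1.10%), against 0.342% of all transcripts and 0.0649% of known spliced transcripts. From 0.5 to 1 FPKM, 9.91% of the members, 6.96% of all and 2.80% of known spliced transcripts passed, from 1 to 2 FPKM 15.0%, 10.1% and 5.99%, and from 2 FPKM 11.7%, 9.37% and 9.15%. The assembled single-exon transcripts stood at 7.67%, 11.7% and 13.1% in these 3 upper ranges. By class, 14 of 65 antisense members passed (21.5%), 15 of 175 of class j, 5 of 50 intronic, 4 of 87 intergenic and 1 of 22 of class o. The 39 came from 33 loci. In 33 of the 39 the AF and PF libraries did not overlap, and in 4 a group was listed at 0 in all 3 libraries. Leaving out each library in turn, 9 kept their call every time, 7 higher and 2 lower, and the count fell to 24 without PF 3.

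**Figure D3:**
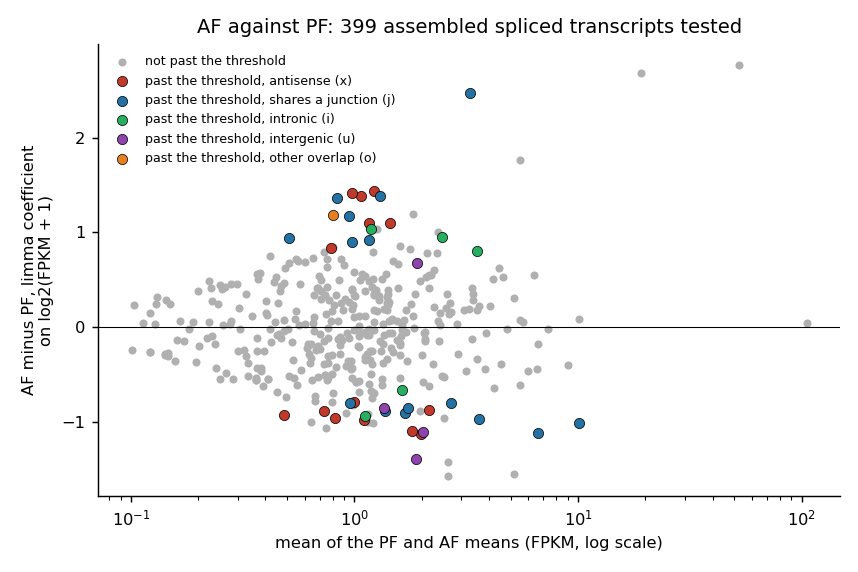
Limma coefficient of AF minus PF on the log2(FPKM + 1) scale against the mean of the PF and AF means in FPKM (log scale), for the 399 members tested. Grey points are not past the threshold, and the 39 coloured points are, by class. The 2 grey points at the top right are MSTRG.27888.1 and MSTRG.1196.1, which span snRNA genes.

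These 2 members were not past the threshold, but MSTRG.27888.1 passed it without PF 2 (coefficient 3.82) or without AF 2 (4.59), and MSTRG.1196.1, high in AF 2 alone, passed it with a replicate block.

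The strongest group of calls lay at a single locus opposite to Slco1a1, which encodes an organic anion uptake transporter of the hepatocyte membrane. All 5 assembled isoforms of MSTRG.37288 (chr6:141866358-141974749) were higher in AF and passed the threshold. MSTRG.37288.6 (6 exons, 6118 bases) measured 0.0925, 0.0786 and 0 FPKM in the PF libraries, 2.64, 14.4 and 2.60 in AF and 2.81, 0.239 and 0.00751 in AF MNA. Every AF library was above every PF library, with AF 2 far above AF 1 and AF 3. The log2 ratio of AF to PF was 6.84, the coefficient 2.47 ± 0.51 (SE) on the log2(FPKM + 1) scale, and the adjusted p by limma 0.595. Without AF 2 the ratio was 5.52.

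MSTRG.37288.3 measured 0.104, 0.389 and 0.0634 FPKM in PF and 1.26, 4.73 and 1.23 in AF, a log2 ratio of 3.70, or 2.75 without AF 2 and 4.85 without PF 2. Its call was lost in a linear model with a library-size covariate and without limma's moderation. MSTRG.37288.5 measured 1.02, 2.73 and 1.26 FPKM in AF and 0 in PF. The AF libraries were also above the PF libraries in MSTRG.37288.1, at 0.832, 0.454 and 1.74 FPKM in AF, and MSTRG.37288.7, at 0.641, 5.78 and 0.862. In PF neither exceeded 0.0307 FPKM. MSTRG.37288.7 overlaps not Slco1a1 but Gm6614, also on the opposite strand, which measured 0.190, 0.210 and 0.150 FPKM in PF and 0.370, 0.770 and 0.260 in AF and was too low to be tested. Isoforms of a locus share exons and reads, so the 5 are not independent of each other.

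The sum of the 5 isoforms was 0.224, 0.467 and 0.110 FPKM in the PF libraries, 6.40, 28.1 and 7.69 in AF and 4.89, 0.931 and 1.11 in AF MNA. All AF libraries were above the other 6, and AF MNA 1 was the highest of these. The known transcript of the locus, which has 3 exons and 794 bases, went the other way, with 1.02, 2.32 and 1.48 FPKM in PF and 0.579, 0 and 0.769 in AF (log2 ratio -1.84, past the threshold). The Slco1a1 gene on the opposite strand measured 34.8, 53.9 and 47.7 FPKM in the PF libraries, 5.54, 16.9 and 10.6 in AF and 8.38, 27.2 and 26.6 in AF MNA. It was lower in every AF library, with a log2 ratio of -2.04 that passed the threshold. AF 2, the library with the highest sum of assembled isoforms, had the highest Slco1a1 of the 3 AF libraries.

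**Figure D4:**
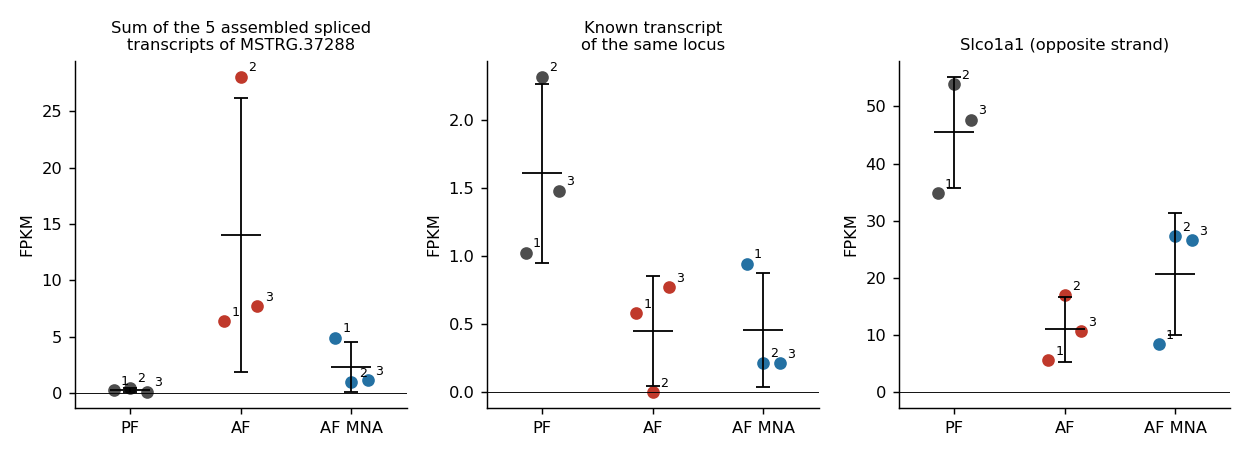
FPKM per library for the sum of the 5 assembled isoforms of MSTRG.37288, the known transcript of the locus and Slco1a1 on the opposite strand. Points are libraries numbered by replicate, and bars are the mean ± SD of 3 libraries. The assembled isoforms are higher in AF than in PF, and the known transcript and Slco1a1 are lower.

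Other transcripts higher in AF lay antisense to or within introns of coding genes. Opposite to Bptf, which encodes the largest subunit of a chromatin remodelling complex, 2 neighbouring 2-exon loci were called, MSTRG.8560.1 (chr11:107043686-107046815) and MSTRG.8561.1 (chr11:107046947-107047998), with 131 bases between them on the plus strand. MSTRG.8560.1 measured 0.0562, 0.150 and 0 FPKM in the PF libraries, 2.42, 1.52 and 1.70 in AF and 0.455, 0.458 and 0 in AF MNA. The AF libraries were above all 6 others, and the log2 ratio of AF to PF was 4.78 (coefficient 1.42 ± 0.31 SE), or 4.19 without PF 3 and 6.06 without PF 2. MSTRG.8561.1 measured 0.332, 0.622 and 0.123 FPKM in PF and 2.93, 1.60 and 1.33 in AF, and its call was lost without AF 1. The Bptf entry itself measured 3.16, 2.89 and 3.25 FPKM in PF and 4.01, 3.15 and 4.04 in AF, a log2 ratio of 0.27 that was not past the threshold.

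Within an intron of Crp, the gene of the acute-phase C-reactive protein, MSTRG.2839.4 (3 exons, chr1:172768646-172781022) measured 1.06, 1.64 and 1.28 FPKM in the PF libraries, 5.17, 3.16 and 2.45 in AF and 1.95, 0.386 and 1.27 in AF MNA. AF stood above both other groups, with a log2 ratio to PF of 1.44. The call was lost after scaling the libraries to the same median, and by the coefficient of 0.95 in place of the ratio. The Crp entry, which includes this locus, measured 1.03, 1.74 and 0.960 FPKM in PF and 7.36, 4.92 and 2.97 in AF, so the intronic transcript and its host gene cannot be told apart as sources of the signal.

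In an intron of Nudt4, MSTRG.5490.1 measured 2.06, 2.31 and 2.51 FPKM in PF and 5.55, 4.05 and 4.69 in AF. The means were 2.29 ± 0.225 and 4.76 ± 0.751 (SD, n = 3), and the log2 ratio of 1.05 stood close to the limit and fell below it without PF 1 (0.98), without AF 1 (0.93), after scaling to the same median (0.92) and by the coefficient (0.80). The Nudt4 entry, on the same strand, measured 15.7, 4.68 and 13.6 FPKM in PF and 20.1, 18.7 and 16.5 in AF. It was higher in every AF library, with a log2 ratio of 0.70 that was not past the threshold. In an intron of Alpl, the gene of alkaline phosphatase, MSTRG.31124.1 measured 0.790, 0.169 and 0.342 FPKM in the PF libraries, 2.70, 1.33 and 1.79 in AF and 0.630, 0.437 and 0.897 in AF MNA, and the call was lost without AF 1. Without PF 1 the log2 ratio was 2.92 in place of 2.16.

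The other 2 higher members among the 14 smallest p-values were new isoforms of known lncRNA genes. MSTRG.34792.7 (1700028E10Rik) measured 0.310, 0.129 and 0.0733 FPKM in the PF libraries, 1.76, 0.917 and 2.46 in AF and 1.11, 0.0937 and 0.285 in AF MNA, a log2 ratio of AF to PF of 3.33, or 4.08 without PF 1. MSTRG.31906.2 (5031425E22Rik, which starts head to head with the histone methyltransferase family gene Kmt2e) measured 0.328, 0.677 and 0.474 FPKM in PF and 2.02, 1.31 and 2.17 in AF. Both kept their calls whichever library was left out, but that of MSTRG.31906.2 was lost by the coefficient (0.92).

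Lower in AF was MSTRG.12383.1, a 4-exon transcript of 724 bases opposite to Serinc5 (chr13:92704586-92706807), a membrane protein gene. It measured 3.44, 3.33 and 2.55 FPKM in the PF libraries, 0.781, 0.725 and 1.12 in AF and 1.02, 1.46 and 1.81 in AF MNA. Every PF library was above the 6 others, and the log2 ratio of AF to PF was -1.83 (coefficient -1.13 ± 0.26 SE), between -2.05 and -1.71 whichever library was left out. Serinc5 itself measured 8.10, 6.66 and 7.55 FPKM in PF and 8.27, 6.99 and 7.01 in AF, with a log2 ratio of -0.0026 and overlapping ranges.

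The intergenic MSTRG.43909.1 (chr9:42271657-42273679, 2 exons, 590 bases) lay 7400 bases from Sc5d, an enzyme gene of cholesterol synthesis. It measured 2.34, 3.63 and 3.43 FPKM in the PF libraries, 0.524, 0.124 and 1.22 in AF and 0.581, 1.38 and 1.36 in AF MNA. Every PF library was again above the 6 others, with a log2 ratio of AF to PF of -2.33, or -3.27 without AF 3.

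MSTRG.10088.1, the Zfp36l1 isoform whose start window is printed above, measured 17.3, 10.8 and 12.7 FPKM in the PF libraries, 3.74, 5.44 and 10.8 in AF and 8.79, 11.6 and 15.1 in AF MNA. Zfp36l1 encodes a protein that promotes the decay of messenger RNAs with AU-rich elements. AF 3 fell just below the lowest PF library, and the log2 ratio of -1.03 did not hold without PF 1 (-0.82), AF 1 (-0.75) or AF 2 (-0.91), while it was -1.57 without AF 3. The Zfp36l1 entry, which shares reads with it, was not past the threshold (log2 ratio -0.53). Opposite to Car3, a carbonic anhydrase gene, MSTRG.26605.3 measured 1.78, 3.58 and 2.96 FPKM in the PF libraries, 0.397, 0.333 and 1.77 in AF and 0.819, 0.792 and 0.833 in AF MNA. It lost its call without PF 2, its log2 ratio of -1.74 was -2.93 without AF 3, and the Car3 entry at 186, 107 and 260.2 FPKM in PF and 88.1, 101 and 161 in AF was not past the threshold.

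**Figure D5:**
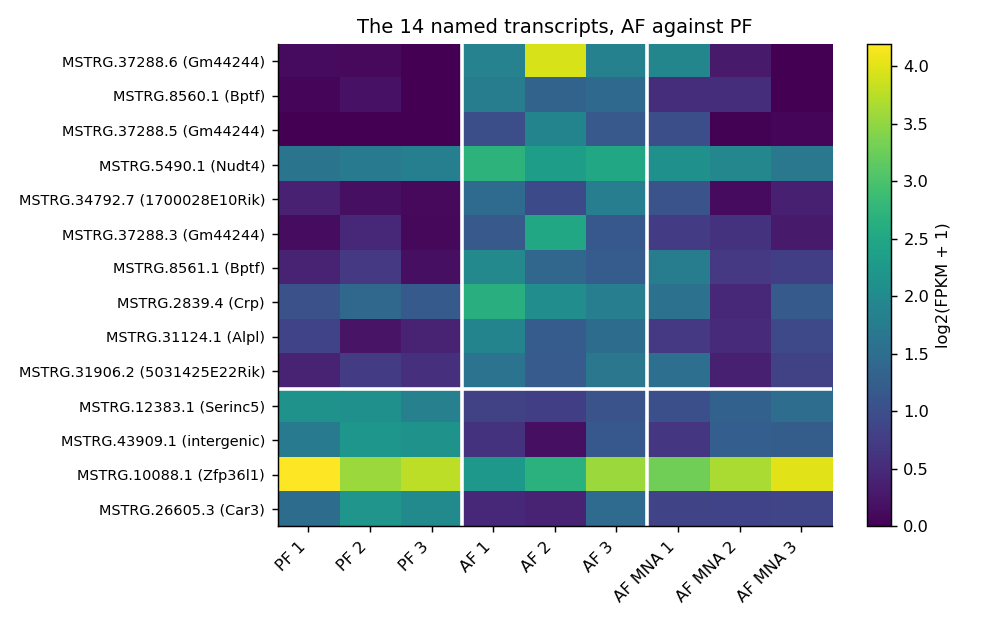
Level as log2(FPKM + 1) in the 9 libraries for the 14 members with the smallest p in AF against PF, those higher in AF above the white line and those lower below it. Names in parentheses are the gene labels of the table. The 3 isoforms of MSTRG.37288 named here are at or near 0 in PF and brightest in AF 2.

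The other 25 called members ranged in log2 ratio from 1.03 to 7.40 for 6 of the 8 that were higher and from -2.74 to -1.04 for 16 of the 17 that were lower, the remaining 3 having a group at 0. The 7.40 belonged to MSTRG.37288.7, whose AF values given above were far higher in AF 2 than in AF 1 and AF 3. Of the 92 gene entries that a tested member overlapped on the opposite strand and that could be tested, 4 passed the threshold (4.35%), against 5.52% of all 17974 gene entries. They were Slco1a1, Mup3, St3gal5 and Zbtb20. Mup3 alone of these passed the correction (log2 ratio -2.65, adjusted p = 0.0258 by limma), and it belongs to the major urinary protein family, whose near-identical copies share reads. The member opposite to it, MSTRG.29796.1, was not past the threshold (log2 ratio -0.19), while MSTRG.29796.2 of the same locus was called lower, with 9.22, 8.44 and 9.04 FPKM in PF and 3.12, 1.41 and 8.49 in AF, AF 3 overlapping the PF range.

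The comparison of AF MNA with AF asks what changed when MNA was added to the alcohol diet. It shares the AF libraries with the comparison above. Of 403 members tested, 21 passed the threshold (5.21%), against 1.75% of all 19752 transcripts. These shares came closest to each other under 2 of the alternatives run. In the linear model with a library-size covariate and no moderation, 9 members passed (2.23%, against 1.93% of all), and with a minimum mean of 0.5 FPKM 17 passed (5.72%, against 5.09%). Higher with MNA were 9, against 0.633% of all, and lower were 12, against 1.11%. These 2 counts were 17 and 11 without AF 3, 5 and 16 without AF MNA 1, 8 and 7 without AF MNA 2, and 4 and 8 without AF MNA 3. By level, the members stood below all transcripts under 0.5 FPKM (0 of 106, against 0.242%) and from 0.5 to 1 FPKM (1.83% against 5.02%), and above them from 1 to 2 FPKM (10.3% against 8.70%) and from 2 FPKM (9.72% against 6.18%). In these 2 upper ranges 10.4% and 10.1% of the assembled single-exon transcripts passed. No adjusted limma p was under 0.05 among the members (smallest 0.591) or among all transcripts. An unadjusted p under 0.05 was found for 25 members, against 1.81% of all. The groups did not overlap in 40 members (9.93%), against 4.84% of all transcripts. Among known spliced transcripts this share was 10.1%, about that of the members. Only 2 of the 21 kept their call whichever library was left out, MSTRG.22177.6 and MSTRG.8560.1, and the count was 12 without AF MNA 3. Leaving aside the 2 called transcripts that span snRNA genes, 19 remained.

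Of the 10 members named here, MSTRG.22177.6 and MSTRG.8560.1 kept their calls in the linear model with a library-size covariate, and the other 8 lost them. The smallest p belonged to MSTRG.22177.6, a 2-exon isoform of 667 bases at the locus of Gm36419 (chr19:32543401-32557475), between the coding genes Minpp1 and Papss2. It measured 0.0926, 0 and 3.87 FPKM in AF, 6.94, 5.19 and 5.28 in AF MNA and 0.604, 4.20 and 0 in PF. The AF MNA libraries were close together and above all others, while AF and PF each held libraries at or near 0 beside one near 4 FPKM. The log2 ratio of AF MNA to AF was 2.13 (coefficient 1.95 ± 0.52 SE), or 6.97 without AF 3. The longer isoform MSTRG.22177.1, which begins in the printed window, measured 5.15, 3.69 and 4.53 FPKM in AF and 5.22, 4.55 and 6.02 in AF MNA, a smaller difference with overlapping ranges.

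Another 3 members were higher with MNA among the 10 with the smallest p, and each lost its call when some library was left out. MSTRG.14340.3 (Gm26908, opposite to Sorbs3 and Ppp3cc) measured 0, 0 and 0.535 FPKM in AF and 6.46, 2.66 and 0.340 in AF MNA, and its call was lost without AF 2, AF MNA 1 or AF MNA 2. MSTRG.38704.3 (Gm27252, opposite to the transcription factor gene Klf13) measured 0, 0.494 and 0.604 FPKM in AF and 2.86, 0.654 and 2.66 in AF MNA, and its call did not hold without AF 1, AF MNA 1 or AF MNA 3. MSTRG.30960.1 (opposite to the Src-family kinase gene Fgr) was listed at 0 in all 3 AF libraries and measured 1.28, 0.554 and 3.56 FPKM in AF MNA and 1.75, 0.652 and 0.510 in PF. It did not hold without AF MNA 3.

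Lower with MNA were MSTRG.8560.1 (Bptf), at -2.63 in log2 ratio, and MSTRG.2839.4 (Crp), at -1.58. The call of MSTRG.2839.4 was lost without AF 1. MSTRG.37288.6 and MSTRG.37288.3 had log2 ratios of -2.68 and -2.33, both lost without AF 2, where they were -1.36 and -1.38. MSTRG.37288.3 also lost its call without AF MNA 3 and after scaling to the same median. MSTRG.37288.6 was -5.73 without AF MNA 1.

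Another pair of members was lower with MNA and consisted of new isoforms of known lncRNA genes. MSTRG.38804.1 (1810008I18Rik) measured 1.42, 2.37 and 5.17 FPKM in AF, 0.519, 0 and 1.09 in AF MNA and 5.25, 0 and 0 in PF, the PF libraries themselves covering both extremes. Its call was lost without AF 3 and when all 9 libraries entered the fit. MSTRG.8370.1 (Gm11586, opposite to Nags, whose product makes the activator of the first urea cycle enzyme) measured 4.31, 3.97 and 6.72 FPKM in AF and 0, 4.79 and 0 in AF MNA. AF MNA 2 lay within the AF range and the other 2 AF MNA libraries were at 0, and the call was lost without AF 3 or AF MNA 1 and after scaling to the same median.

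Past the threshold in both comparisons were 10 members from 7 loci, 4 of them at MSTRG.37288, each with opposite signs. Both comparisons use the same 3 AF libraries, so the opposite signs are not independent of each other and the count is given as a description. The remaining 11 called members had log2 ratios of AF MNA to AF from 1.64 to 8.28 for the 5 that were higher, the largest being MSTRG.9630.1 over U1 genes, and from -3.51 to -1.22 for 5 of the 6 that were lower. The ratio of MSTRG.9630.1 rests on single libraries, at 359, 2119 and 0 FPKM in AF MNA and 0, 0 and 7.98 in AF.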

How the data were processed

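Liver RNA of 9 mouse libraries (3 PF, 3 AF, 3 AF MNA) was ribosome-depleted and prepared with dUTP strand marking. The submitters' processing notes name cutadapt 1.9, HISAT2 and StringTie 1.3.4; the genome build is not given in the sources used here, and positions matched GENCODE M21 on GRCm38. The authors deposited FPKM values per transcript and per gene, read coverage per transcript (a signal not scaled for depth), and CPC and CNCI scores per assembled transcript. The authors' selection on length, overlap with messenger RNAs and coding potential had been applied before deposit. The table of circular RNAs was not used. How reads shared by isoforms or repeated genes were divided is StringTie's estimate and limits each isoform's value.

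Members were the entries not marked as known that have at least 2 exons. Each comparison was fitted over the whole lncRNA table with limma 3.58.1 in R 4.3.3 (lmFit, eBayes with an intensity trend, two-sided) on log2(FPKM + 1) for transcripts averaging 0.1 FPKM or more in the 6 libraries compared, and p-values were adjusted by Benjamini-Hochberg over all transcripts tested. Past the threshold means an unadjusted p under 0.05 and a log2 ratio of group mean FPKMs above 1 or below -1. limma replaced the Ballgown model of the methods. Ballgown itself was not run, and a linear model written after it, with a library-size covariate and no moderation, served as an alternative. Gene entries were fitted the same way from a mean of 0.5 FPKM. An exact permutation test of 3 against 3 libraries cannot go below 0.1, which it reached for non-overlapping groups. Coefficients are on the log2(FPKM + 1) scale and understate the change of low transcripts. The fit was tested on simulated data. Named were the 10 members with the highest mean, the 14 and 10 with the smallest p among those past the threshold in the 2 comparisons, and the 3 with the most exons; others named were chosen after their values were seen. The members, lists and tests were chosen with earlier results of these data known. Sequences came from RefSeq windows and GENCODE transcripts, since no genome of the build was used here.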

Additional observations from a re-analysis of the deposited data

How the results depend on the processing

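The count of members past the threshold in AF against PF was 39. It was 17 (4.26%, against 1.40% of all transcripts) with the limma coefficient in place of the log2 ratio of means, which by construction is smaller for low transcripts, and 24 to 41 when single libraries were left out, lowest without PF 3. The count in AF MNA against AF was 21. It was 9 in the linear model with a library-size covariate and no moderation (2.23%, against 1.93% of all transcripts, the cause not being tested), and 12 to 28 when single libraries were left out, lowest without AF MNA 3. Under every other alternative run both counts stayed within 1.5 times the main count. The replicate numbers did not pair the libraries (same-number correlations of deviations from the group mean -0.04, 0.01 and -0.03 for AF and PF, and 0.08, -0.05 and 0.05 for AF MNA and AF), and a replicate block gave 42 and 26 members. Scaling the libraries to the same median gave 13 higher and 30 lower in AF, against 18 and 21. Counting loci gave 33 and 18, an alternative added after the data were seen, as was leaving out the transcripts over snRNA genes, which gave 39 and 19.

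Directions were followed only for members named by the rule. Among those that were not past the threshold in AF against PF, the direction turned when single libraries were left out in MSTRG.9630.1 (coefficient -1.44 to 1.06), MSTRG.13736.1 (log2 ratio -1.02 to 0.0189), MSTRG.20912.2 (-0.47 to 0.0111), MSTRG.28718.17 (-1.60 to 1.07), MSTRG.30241.1 (-0.43 to 0.71), MSTRG.40245.2 (-0.0579 to 0.24) and MSTRG.46499.10 (-1.998 to 0.0301). The coefficient of MSTRG.28718.17 was 0.0763. The gene entries other than a member's own that a member overlapped on either strand numbered 6 past the threshold of 138 tested, and 6 to 7 when single libraries were left out. They were the 4 on the opposite strand and Cbr1 and Pced1b on the same strand, and the entries Crp, Gm33543 and Pgpep1l, which include the member itself, are not among them. At a minimum of 0.1 FPKM, 206 members were found in all 9 libraries in place of 253. The search for polyadenylation signals was not run. With 3 libraries a group, FPKM in place of counts and isoforms that share reads, single low transcripts cannot be established here.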

Other observations

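Outside the rule for named transcripts, the 3 assembled isoforms of Meg3, the imprinted lncRNA of the Dlk1-Dio3 region, summed to 0.378, 0.103 and 0.174 FPKM in the PF libraries, 1.82, 8.19 and 1.76 in AF and 4.28, 1.87 and 2.67 in AF MNA. All 6 libraries of alcohol-fed mice were above the 3 PF libraries. The isoforms did not follow each other: MSTRG.10718.5, with 10 exons, measured 0, 7.57 and 0 FPKM in AF and 0 in the other 6 libraries, while MSTRG.10718.2, with 8 exons, measured 1.82, 0.225 and 1.70 FPKM in AF and 4.28, 1.73 and 2.52 in AF MNA. These were chosen after their values were seen and were not tested as a sum.

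A single library held nearly all of the signal of MSTRG.42665.1 (Gm17344), which starts head to head with Phlpp2 and measured 0.147, 0 and 15.6 FPKM in PF and at most 0.0185 in the other groups. The intergenic MSTRG.307.2 (chr1:23256952-23261488) measured 0.139, 0.136 and 5.78 FPKM in the PF libraries, 0.129, 8.10 and 0.178 in AF and 8.06, 0.147 and 5.21 in AF MNA, so that 4 libraries lay above 5 FPKM and the other 5 below 0.2, without regard to group.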
